A study of Homo sapiens and Mus musculus with 56 samples.

Results

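The SF295 tumours were examined through their mouse transcripts, comparing mice given the MET inhibitor V-4084 with mice given vehicle. The arrays were chosen by their titles on the mouse platform, which gave 3 V-4084 arrays and 2 vehicle arrays, the only 2 vehicle arrays of this line. They are 5 of the 28 mouse arrays and of the 56 arrays in the series. The other 23 mouse arrays hold V-4084 and vehicle tumours of 4 further human glioblastoma lines, U118, U87M2, DBM2 and U251M2. The 28 human arrays hold cultured cells of the same 5 lines, also given V-4084 or vehicle. Their treatment is listed as 7 days, and no dose for the cells is given here.

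SF295 is a human glioblastoma line. For the tumours, 500000 cells were placed under the skin of the flank of nude mice, outside the brain. The V-4084 mice received the compound, a small molecule described in the labels as a selective blocker of MET kinase activity, at 30 mg per kg for 7 days. The vehicle mice received MC 400 (0.5%) and Tween 80 (0.05%), the carrier in which V-4084 was also given, over the same 7 days. The labels state no age or sex for the mice. Nude mice carry no working thymus and so hold few mature T cells, while natural killer cells and macrophages remain. The repeats are not stated to come from separate animals, so every p-value describes the spread between arrays, which may be technical.

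MET is a receptor tyrosine kinase that is switched on by hepatocyte growth factor, which is made mostly by fibroblasts and other mesenchymal cells. Its signal runs through the MAPK and PI3K pathways and drives growth, migration and the sprouting of vessels. In a xenograft the cancer cells are human, whereas the vessels, fibroblasts and immune cells belong to the mouse, so mouse probes are aimed at the host tissue around the tumour. RNA of the human cells can also bind to mouse probes, and how far it did so was not tested.

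The values are the authors' RMA intensities on a log2 scale, in which a difference of 1 is a doubling. Array medians lay at 6.13, 6.11 and 6.14 with V-4084 and at 6.17 and 6.11 with vehicle. Each of the 28 mouse arrays lay nearest to another array of its own line. Within SF295, however, both vehicle arrays lay nearest to V-4084 repeat 2, and V-4084 repeats 2 and 3 lay nearest to vehicle repeat 2. V-4084 repeat 3 was the highest or the lowest of the 5 arrays for 55.66% of genes, and vehicle repeat 1 for 53.34%, against 28% to 32.09% for the other 3 arrays. These 2 arrays stood apart from the rest, so for several of the genes described at length values without 1 of them are also given.

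Host tissue was checked through markers chosen because they define their cell types. Adgre1, the macrophage antigen F4/80, lay at 10.05, 9.92 and 9.99 with V-4084 and at 9.95 and 9.99 with vehicle. Col1a1, the main fibrillar collagen of fibroblasts, lay at 11.14, 11.15 and 10.78 with V-4084 and at 10.36 and 11.19 with vehicle. Both stood far above the array median on every array. Gfap, the intermediate filament of astrocytes, lay at 5.60, 5.98 and 5.50 with V-4084 and at 5.93 and 5.60 with vehicle, below the array median in every case, although the labels name brain tumour as the tissue.

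The first question was which host genes differed between V-4084 and vehicle. Of 19938 genes, 2 rose with V-4084 at an adjusted p under 0.05 (0.0100% of those tested) and 0 fell (limma over the 10 groups of mouse arrays, Benjamini-Hochberg adjustment). At an unadjusted p under 0.05 there were 630 higher genes (3.16%) and 711 lower genes (3.57%). The 2 genes were Klra2 and Ch25h. The count was 5 without V-4084 repeat 3 and 9 without vehicle repeat 2. In the other lines, fitted together with SF295, the same test called 2 genes in U118 (0.0100%), 741 in U87M2 (3.72%), 8 in U251M2 (0.0401%) and 0 in DBM2, where 458 (2.30%) had an unadjusted p under 0.05.

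Klra2 encodes Ly49B, an inhibitory lectin-like receptor of the Ly49 family that is found on mouse myeloid cells. It lay at 6.75, 6.66 and 6.37 with V-4084 and at 5.58 and 5.53 with vehicle. Every V-4084 array was above both vehicle arrays, and the gap was wider than the spread within either group. The difference was 1.04 ± 0.12 on the log2 scale (SE, 3 against 2 arrays), a 2.05-fold rise (limma, adjusted p = 0.000178). This SE, like those below, rests on the spread shared by all 10 groups of a platform. In a fit of the 5 SF295 arrays alone it was 0.15. No other member of the family was called. The 5 other Klra genes measured ranged from -0.31 to 0.24 (adjusted p from 0.803 to 0.967). Arrays did not overlap for 2 of them, in opposite directions: Klra3 was lower (-0.31) and Klra8 higher (0.17). Over all genes, 3116 (15.6%) had arrays that did not overlap. Klra genes are close copies of one another, so that signal may be shared between their probe sets.

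Ch25h makes 25-hydroxycholesterol, an oxysterol that macrophages release after interferon or Toll-like receptor stimulation and that limits cholesterol synthesis and viral entry. Its level was 9.65, 9.30 and 9.83 with V-4084 and 7.995 and 8.52 with vehicle. Again the groups did not overlap, with vehicle repeat 1 the lowest of all. The difference was 1.34 ± 0.18 (SE), a 2.53-fold rise (limma, adjusted p = 0.00133). The rise of Ch25h leaned on vehicle repeat 1, since without that array the difference was 1.08 with an adjusted p of 0.236. Klra2 kept its call without any 1 of the 5 arrays. In a fit of the 5 SF295 arrays alone, both genes had an adjusted p of 0.0869 and 0 genes were called, with 496 at an unadjusted p under 0.05.

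For the human copies only cultured cells were measured, so human RNA in the tumours themselves was not read. In cultured SF295 cells CH25H lay at 6.45 and 6.90 with V-4084 and at 6.68 and 6.43 with vehicle. The difference was 0.12 ± 0.26 (SE, 2 against 2 arrays, limma adjusted p = 0.908), and the arrays of the 2 groups interleaved. No gene on the human arrays carried the symbol of Klra2. On the human SF295 arrays 0 of 18417 genes were called, while 1581 (8.58%) had an unadjusted p under 0.05. Another 3 human arrays are titled DBM2 with V-4084 but name SF295 in other label fields. They were grouped by title, and so entered no SF295 value but did enter the shared spread.

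**Figure D1:**
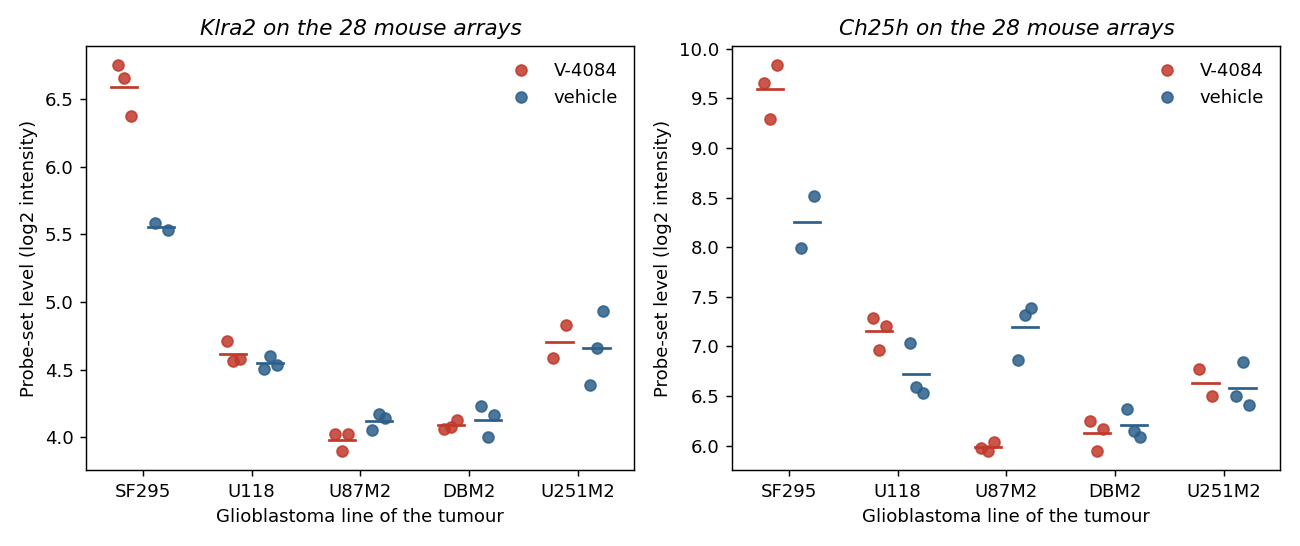
Levels of Klra2 (left) and Ch25h (right) as log2 intensity on each of the 28 mouse arrays, by line, with V-4084 in red left of vehicle in blue. Each point is 1 array and each bar a group mean; the SF295 means were 6.59 with V-4084 against 5.56 with vehicle for Klra2, and 9.59 against 8.26 for Ch25h.

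The next question was whether these differences also stood in tumours of the other lines. The SF295 difference was set against the mean of the 4 other within-line differences in the same fit. Of 19938 genes, 2 passed at an adjusted p under 0.05 (0.0100%), and they were again Klra2 and Ch25h. A total of 1376 genes (6.90%) had an unadjusted p under 0.05. The count was 6 without V-4084 repeat 3 and 6 without vehicle repeat 2, with Klra2 and Ch25h among them both times. Without vehicle repeat 1 it was 3, namely Klra2, Mymk and Deptor, but not Ch25h. Deptor, an inhibitor of mTOR, is named after its values were seen.

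For Klra2, the SF295 difference exceeded that of the other lines by 1.05 ± 0.13 (SE, limma adjusted p = 0.000627). Its own differences there ran from -0.14 (U87M2) and -0.04 (DBM2) to 0.05 (U251M2) and 0.07 (U118). The vehicle level was also highest in SF295, at 5.56 ± 0.03 (SD, n = 2), against 4.66 ± 0.28 in U251M2, 4.55 ± 0.05 in U118, 4.13 ± 0.12 in DBM2 and 4.12 ± 0.06 in U87M2 (SD, n = 3 each). The lower 2 of these lines differed by less than their spread, as did U251M2 and U118, while SF295 lay above all 4.

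For Ch25h, the SF295 difference exceeded that of the other lines by 1.54 ± 0.20 (SE, limma adjusted p = 0.000627). This call too was lost without vehicle repeat 1, where the excess was 1.28 (adjusted p = 0.0728), and it was 1.44 with a replicate block (adjusted p = 0.0516). The gene fell in U87M2 tumours, with a difference of -1.20 ± 0.16 (SE, limma adjusted p = 8.1e-05). In U118 the difference was 0.43 (adjusted p = 0.652), in DBM2 -0.08 and in U251M2 0.05. Vehicle levels ran from 8.26 ± 0.37 in SF295 (SD, n = 2) through 7.19 ± 0.28 in U87M2, 6.72 ± 0.27 in U118 and 6.58 ± 0.23 in U251M2 to 6.20 ± 0.15 in DBM2 (SD, n = 3 each). With vehicle, SF295 tumours thus had the highest host level of both genes, and U118 and U251M2 could not be ordered within their spread.

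**Figure D2:**
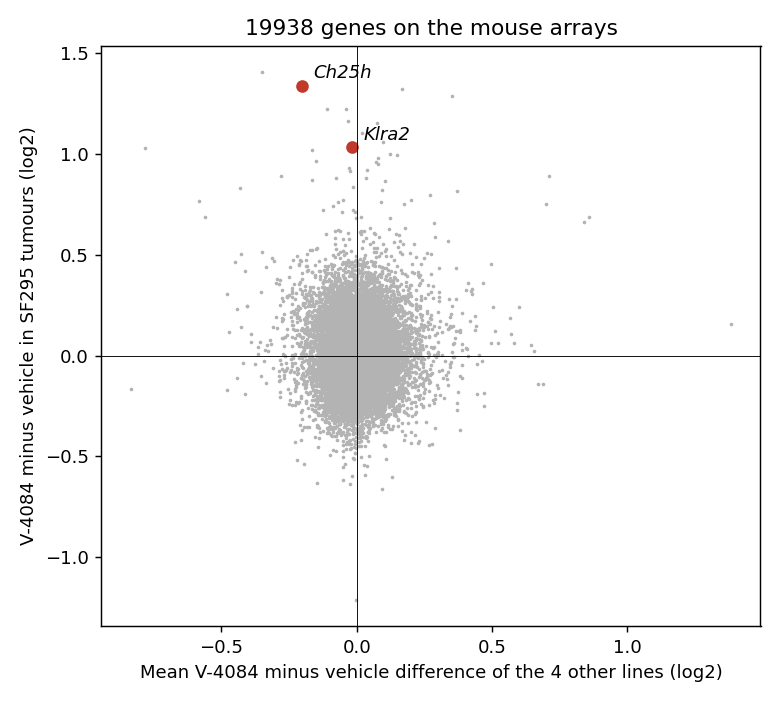
Each grey point is 1 of 19938 genes, with the mean V-4084 minus vehicle difference of the 4 other lines on the x axis and that of SF295 tumours on the y axis, both in log2 units. The 2 called genes, in red, lie at 1.34 (Ch25h) and 1.04 (Klra2) in SF295.

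The other 4 of the 6 genes with the smallest p for this difference between lines did not pass. Mymk, the membrane protein that fuses myoblasts, differed by -0.76 ± 0.14 from the other lines (SE, limma adjusted p = 0.0765), with -1.01 without vehicle repeat 1 (adjusted p = 0.00819) and -0.50 without vehicle repeat 2 (adjusted p = 0.219). Stk38l, a serine/threonine kinase of the NDR family, differed by 0.83 ± 0.16 (adjusted p = 0.0887), with 0.43 without vehicle repeat 1 (adjusted p = 0.877) and 1.22 without vehicle repeat 2 (adjusted p = 0.000144). The sizes of Mymk and Stk38l thus turned on which vehicle array was kept. Rgcc, a regulator of the cell cycle, differed by -0.54 ± 0.11 (adjusted p = 0.0887). Hsd17b10, a mitochondrial dehydrogenase, differed by -0.72 ± 0.14 (adjusted p = 0.0887). Hsd17b10 lay at 8.50, 8.61 and 8.33 with V-4084 and at 9.01 and 8.83 with vehicle in SF295. Its arrays did not overlap there, while the difference was positive in each of the other 4 lines, between 0.12 and 0.53.

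The host transcripts of the ligand and the receptor were then read. Their levels do not report the kinase activity that V-4084 blocks. Hgf, the ligand, lay at 7.63, 7.25 and 7.25 with V-4084 and at 7.42 and 7.29 with vehicle. The groups overlapped, and the difference was 0.02 ± 0.14 (SE, limma adjusted p = 0.988). Met, the mouse copy of the receptor, lay at 6.77, 6.80 and 6.73 with V-4084 and at 6.42 and 6.73 with vehicle. The 3 V-4084 values stood just above the higher vehicle value, with a difference of 0.19 ± 0.09 (SE, adjusted p = 0.74). That difference was 0.04 without vehicle repeat 1 and 0.35 without vehicle repeat 2, neither of them called. Human MET in the cultured cells differed by 0.37 (limma adjusted p = 0.605) and human HGF by 0.17 (adjusted p = 0.745). In those SF295 cells human HGF lay at 10.13 and 10.27 with V-4084 and at 10.145 and 9.91 with vehicle.

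The wider HGF-MET list held 19 measured genes of 20, including activators, inhibitors, adaptors and surface partners. Its median difference was -0.03, beside -0.01 for all genes, and 0 members were called in either direction. Arrays did not overlap for 3 higher members and 1 lower member, while over all genes 1138 (5.71%) were higher and 1978 (9.92%) lower without overlap. Plau, the urokinase that activates plasminogen and can activate pro-HGF, lay at 9.16, 8.84 and 8.73 with V-4084 and at 8.53 and 8.52 with vehicle. Cd44, a hyaluronan receptor and MET partner, lay at 7.99, 7.69 and 7.84 with V-4084 and at 7.29 and 7.63 with vehicle. Both stood higher on every V-4084 array, with differences of 0.39 ± 0.19 and 0.38 ± 0.18 (SE, limma adjusted p = 0.74 for each).

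Genes that the MAPK pathway drives had a median difference of 0.02 over 24 measured members, and 0 were called. Of these, 6 were higher without overlap (25%, beside 5.71% of all genes) and 0 lower (beside 9.92% of all genes). Ccnd1, cyclin D1, lay at 10.60, 10.28 and 10.23 with V-4084 and at 9.72 and 10.13 with vehicle, a difference of 0.44 ± 0.12 (SE, limma adjusted p = 0.533). Egr1 and Egr2, immediate early transcription factors, differed by 0.31 and 0.33 (adjusted p = 0.722 for each), with all V-4084 arrays on the higher side. FOXO targets, which PI3K signalling holds down, had a median of 0.00 over 16 members, with 0 called. Among them, 1 was higher (6.25%) and 4 were lower (25%) without overlap. The largest difference among them was that of Gadd45a at -0.34 (adjusted p = 0.722).

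Over the 35 lists described here, 571 of 614 distinct genes were measured and 0 were called, while 55 (9.63%) had an unadjusted p under 0.05, beside 1341 (6.73%) of all genes. Over all genes, 5.71% were higher and 9.92% lower without overlap, the shares beside which the counts of each list below stand. In bulk tumour RNA, fewer cells of a type and less RNA per cell cannot be told apart.

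Of the immune lists, the inflammatory one lay farthest above the median of all genes. Its 30 genes had a median difference of 0.21, with 21 above 0 (46.3% of all genes were above 0) and 0 called. Arrays did not overlap for 8 higher genes (26.7%) and 1 lower gene (3.33%). Ccl2, the main monocyte chemoattractant, lay at 9.23, 9.18 and 9.50 with V-4084 and at 8.70 and 8.66 with vehicle (0.62 ± 0.17, SE, limma adjusted p = 0.565). Ccl7, a related monocyte chemokine, lay at 9.06, 8.93 and 8.94 with V-4084 and at 8.35 and 8.36 with vehicle (0.62 ± 0.18, adjusted p = 0.62). For both chemokines the vehicle arrays sat close together below all 3 V-4084 arrays. Il1rn, the natural antagonist of the interleukin-1 receptor, lay at 8.23, 8.15 and 8.43 with V-4084 and at 7.49 and 7.81 with vehicle (0.62 ± 0.14, adjusted p = 0.361). The list median lay between 0.14 and 0.24 when any 1 array was left out. Among the other lines the median lay between -0.03 (U251M2) and 0.03 (DBM2), and the difference from SF295 was not tested for the list.

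Interferon response genes had a median of 0.17 over 22 measured members of 26, with 20 above 0 and 0 called. Arrays did not overlap for 5 higher members (22.7%) and 0 lower members. Cxcl9, a chemokine induced by interferon gamma that draws T cells, lay at 10.35, 9.60 and 9.18 with V-4084 and at 8.08 and 8.53 with vehicle. This was the widest gap of the list, 1.40 ± 0.48 (SE, limma adjusted p = 0.711), and the V-4084 arrays themselves spread over more than a doubling. Cxcl10, its relative, lay at 8.86, 8.10 and 8.24 with V-4084 and at 7.37 and 7.69 with vehicle, a difference of 0.87 ± 0.30 (adjusted p = 0.722). The list median was 0.08 without vehicle repeat 1 and 0.35 without vehicle repeat 2, so its size turned on which vehicle array was kept. Without V-4084 repeat 1, which held the highest Cxcl9 and Cxcl10 values, the list median was 0.12. The U87M2 and U251M2 medians were also 0.17, while those of U118 and DBM2 were -0.12 and -0.11.

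Natural killer and T cell markers had a median of 0.11 over 16 measured members, with 0 called. Among them, 4 were higher (25%) and 1 lower (6.25%) without overlap. Cd3g, a chain of the T cell receptor complex, lay at 7.27, 5.56 and 5.80 with V-4084 and at 4.62 and 5.16 with vehicle (1.32 ± 0.45, SE, limma adjusted p = 0.722). Nkg7, a granule protein of cytotoxic lymphocytes, lay at 8.08, 7.31 and 6.99 with V-4084 and at 6.75 and 6.96 with vehicle (0.61 ± 0.31, adjusted p = 0.743). V-4084 repeat 1 carried the top of both genes, and without it the list median was 0.0015. That same array was the one with skin and muscle transcripts, described below, and their part in these values was not tested.

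Macrophage markers overlapped between the groups in the mean level of the list. The median of 20 measured members was 0.06, with 14 above 0 (46.3% of all genes were above 0). Members ranged from -0.35 to 0.47 and 0 were called, with 2 higher (10%) and 1 lower (5%) without overlap. The mean level of the list lay at 9.42, 9.53 and 9.49 with V-4084 and at 9.41 and 9.46 with vehicle. Msr1, a scavenger receptor, was the member with the largest difference, at 0.47 ± 0.25 (SE, limma adjusted p = 0.746). Trem2, a lipid-sensing receptor, lay lower at -0.27 ± 0.15 (adjusted p = 0.758). Klra2 and Ch25h are both known from myeloid cells, and whether the number of such cells differed between the groups was not tested. Dendritic cell and MHC class II genes had a median of 0.15 over 14 members, and of -0.03 without V-4084 repeat 1. MHC class I genes had a median of 0.11 over 10 members, and of 0.01 without that array.

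Blood vessel markers had medians below 0, while the lymphatic list had one above it. Endothelial genes had a median of -0.15 over 18 measured members, with 2 above 0 and 0 called. Arrays did not overlap for 0 higher members and 6 lower members (33.3%). Mmrn2, an endothelial matrix protein, lay at 7.97, 8.15 and 7.84 with V-4084 and at 8.49 and 8.37 with vehicle, a difference of -0.44 ± 0.14 (SE, limma adjusted p = 0.671). Pecam1, the junction protein CD31, lay at 8.33, 8.35 and 8.28 with V-4084 and at 8.52 and 8.58 with vehicle (-0.23 ± 0.12, adjusted p = 0.746). Egfl7, a factor secreted by endothelium, differed by -0.24 ± 0.11 (adjusted p = 0.736). For these 3 genes both vehicle arrays stood above every V-4084 array, by less than 1 log2 unit. Emcn differed by -0.28, but its V-4084 values of 9.27, 9.57 and 10.21 spanned the vehicle values of 10.20 and 9.72. The endothelial median lay between -0.18 and -0.13 when any 1 array was left out. Among the other lines it ran from 7e-04 (U118) and 0.01 (DBM2) to 0.11 (U87M2) and 0.13 (U251M2), and the list difference between lines was not tested.

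The cells that wrap vessels showed values of similar size. Pericyte and smooth muscle genes had a median of -0.14 over 15 members, with 3 lower (20%) and 0 higher without overlap. That median lay between -0.17 and -0.13 when any 1 array was left out. The angiogenesis list had a median of -0.11 over 24 members, with 5 lower (20.8%) and 0 higher without overlap. In it, Angptl4, a secreted inhibitor of lipoprotein lipase, lay at 6.69, 6.87 and 6.67 with V-4084 and at 6.97 and 7.18 with vehicle (-0.33 ± 0.15, SE, limma adjusted p = 0.73). Lymphatic endothelial genes had a median of 0.19 over 6 measured members, with 5 above 0, none without overlap, and ranging from -0.0035 without V-4084 repeat 1 to 0.31 without V-4084 repeat 3. Of these 4 vessel lists, 0 genes were called.

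**Figure D3:**
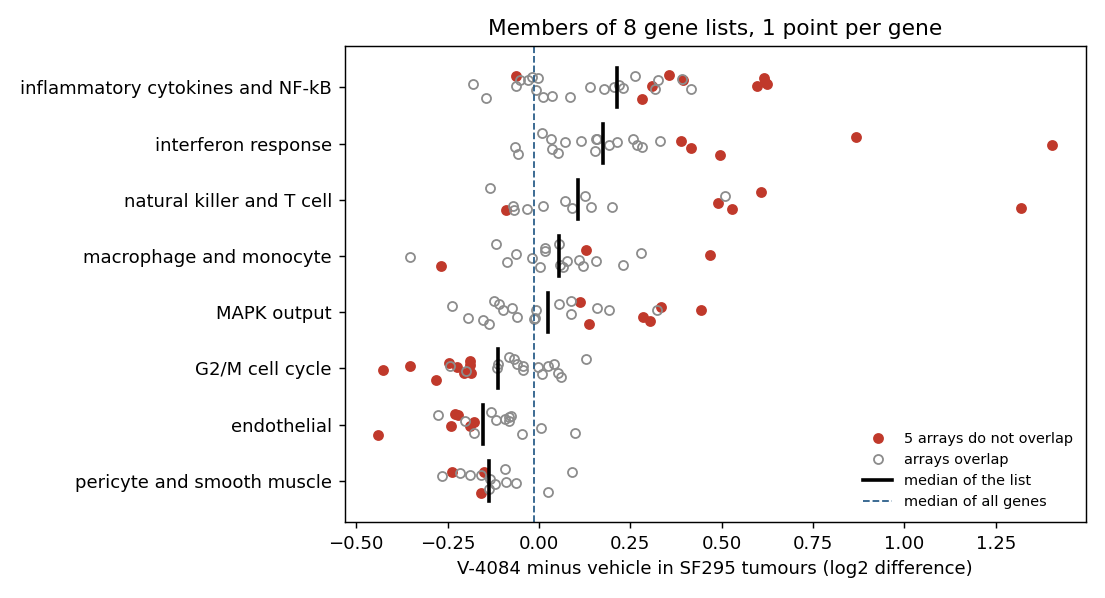
Difference between V-4084 and vehicle in SF295 tumours (log2, x axis) for each measured member of 8 gene lists, with filled red points where the 5 arrays do not overlap, black bars at list medians and a dashed line at the median of all genes, -0.01. The inflammatory median stands at 0.21 and the endothelial median at -0.15.

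Cell cycle genes were read by phase. The G2/M list, the genes of mitosis, had a median of -0.11 over 25 measured members, with 6 above 0 and 0 called. Arrays did not overlap for 9 lower members (36%) and 0 higher members. Plk1, the polo-like kinase of mitotic entry, lay at 7.72, 7.97 and 7.65 with V-4084 and at 8.31 and 8.11 with vehicle (-0.43 ± 0.14, SE, limma adjusted p = 0.672). Bub1b, a spindle checkpoint kinase, lay at 6.29, 6.56 and 6.62 with V-4084 and at 6.81 and 6.87 with vehicle (-0.35 ± 0.12, adjusted p = 0.695). Both genes were below the vehicle values on every V-4084 array. The G2/M median ranged from -0.19 to -0.05 when 1 array was left out, with -0.05 without V-4084 repeat 1. Among the other lines it ran from -0.51 (U87M2), -0.38 (U118) and -0.11 (DBM2) to 0.10 (U251M2). The G1/S list, the genes of DNA replication, had a median of 0.00 over 20 members, with 4 higher (20%) and 1 lower (5%) without overlap. Pola1, a DNA polymerase subunit, differed by 0.54 ± 0.14 (adjusted p = 0.542).

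Tissue that surrounds a flank tumour differed between arrays rather than between groups. Krt5, the keratin of basal epidermis, lay at 9.86, 6.18 and 5.995 with V-4084 and at 6.21 and 6.03 with vehicle. Krt14, its partner keratin, lay at 9.34, 5.96 and 6.06 with V-4084 and at 6.08 and 6.33 with vehicle. The mean level of the 18 keratinocyte genes was 7.02, 5.80 and 5.77 with V-4084 and 5.97 and 5.84 with vehicle, so 1 array, V-4084 repeat 1, carried skin transcripts. Skeletal muscle genes followed the same array, with mean levels of 8.0, 6.72 and 6.54 with V-4084 and 6.59 and 7.10 with vehicle. Myh4, the fast myosin heavy chain, reached 9.34 on V-4084 repeat 1, against 7.41 or less on the other 4 arrays. The list medians of 0.18 for keratinocytes and 0.20 for skeletal muscle became -0.07 and -0.17 without that array.

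Vehicle repeat 1 differed from the other arrays in fat and connective tissue. The 15 adipocyte genes averaged 7.11, 7.22 and 6.91 with V-4084 and 6.56 and 7.36 with vehicle. The 13 fibroblast genes averaged 8.44, 8.46 and 8.39 with V-4084 and 8.02 and 8.73 with vehicle. The vehicle arrays were thus the lowest and the highest for both lists, with the V-4084 arrays between them. Scd1, the desaturase of fat and sebaceous cells, lay at 8.34, 9.77 and 8.59 with V-4084 and at 5.79 and 9.43 with vehicle. The fibroblast median was -0.29 without vehicle repeat 1 and 0.31 without vehicle repeat 2.

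**Figure D4:**
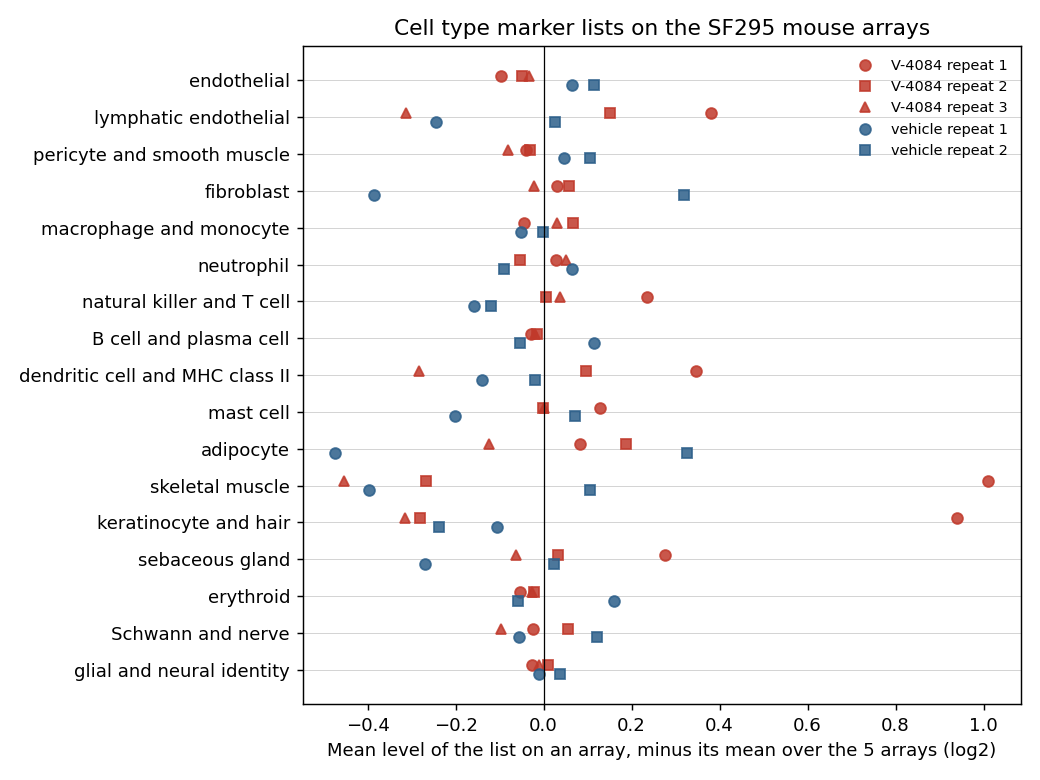
Mean level of each cell type list on the 5 SF295 mouse arrays, drawn as the distance from its mean over the 5 arrays (log2, x axis), with V-4084 in red and vehicle in blue. V-4084 repeat 1 lies far to the right for keratinocyte and skeletal muscle genes (means of 7.02 and 8.0), and vehicle repeat 1 to the left for adipocyte and fibroblast genes (6.56 and 8.02).

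Beyond the 2 called genes, the text names the genes with the smallest p among those whose arrays did not overlap, until 12 stood in each direction. The 10 further genes on the higher side differed by 1.30- to 2.08-fold (limma, adjusted p from 0.145 to 0.519), and none was called. Mmp12, the macrophage elastase, lay at 8.39, 8.44 and 8.50 with V-4084 and at 7.44 and 7.61 with vehicle, a difference of 0.92 ± 0.20 (SE, adjusted p = 0.2). Cgas, the sensor of cytosolic DNA, lay at 5.98, 5.90 and 6.43 with V-4084 and at 5.51 and 5.48 with vehicle (0.61 ± 0.12, adjusted p = 0.146). Il2ra, the alpha chain of the interleukin-2 receptor, lay at 9.01, 8.95 and 8.86 with V-4084 and at 7.78 and 8.11 with vehicle (0.99 ± 0.22, adjusted p = 0.309). These genes were tight among the V-4084 arrays apart from repeat 3 for Cgas, which differed by 0.45 without that array. Il2ra was the only 1 of the 12 higher genes whose difference was above 0 in all 4 other lines, from 0.05 to 0.28.

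Tent5c, a poly(A) polymerase that stabilises messages of secreted proteins, lay at 8.72, 8.49 and 8.19 with V-4084 and at 7.53 and 7.97 with vehicle (0.71 ± 0.15, SE, limma adjusted p = 0.2). Stk38l lay at 7.24, 7.29 and 7.55 with V-4084 and at 6.23 and 7.02 with vehicle (0.74 ± 0.14, adjusted p = 0.145). The 2 vehicle arrays of Stk38l stood farther apart than the 3 V-4084 arrays, and its difference was 0.34 without vehicle repeat 1 (adjusted p = 1) and 1.13 without vehicle repeat 2 (adjusted p = 0.000183). Without V-4084 repeat 3, Tent5c passed at 0.85 (adjusted p = 0.0438). Rbm12b2, an RNA-binding protein, lay at 6.27, 6.22 and 7.24 with V-4084 and at 5.19 and 5.85 with vehicle (1.06 ± 0.24, adjusted p = 0.289). Its SF295 difference was 0.73 without V-4084 repeat 3 and also 0.73 without vehicle repeat 1. Rbm12b2 rose in U87M2 tumours (0.85, adjusted p = 0.0203). The remaining higher genes were Ptcd2 (0.49), a mitochondrial RNA-processing protein, Atf1 (0.49), a CREB-family transcription factor, and Cflar (0.38), an inhibitor of caspase-8, beside Il1rn.

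The 12 genes on the lower side differed by -0.66 to -0.36 on the log2 scale (limma, adjusted p from 0.127 to 0.519), and none was called. Mymk lay at 6.88, 6.69 and 6.67 with V-4084 and at 7.15 and 7.66 with vehicle (-0.66 ± 0.13, SE, adjusted p = 0.127), a difference that was -0.91 without vehicle repeat 1 (adjusted p = 0.00724) and -0.41 without vehicle repeat 2 (adjusted p = 0.232). Knstrn, a spindle protein of mitosis, lay at 6.97, 7.14 and 7.02 with V-4084 and at 7.66 and 7.46 with vehicle (-0.52 ± 0.11, adjusted p = 0.225). Knstrn fell in U87M2 tumours (-0.43, adjusted p = 0.0142), and its human copy differed by -0.49 in cultured SF295 cells without a call. Rgcc lay at 6.28, 6.40 and 6.32 with V-4084 and at 6.73 and 6.68 with vehicle (-0.37 ± 0.10, adjusted p = 0.519), whereas it rose in U87M2 tumours (0.40, adjusted p = 0.00669). The other lower genes included H2az2 (-0.51), a histone variant, Pfdn2 (-0.48), a subunit of the prefoldin chaperone, Cplx3 (-0.48), a regulator of vesicle release, and Cd70 (-0.39), the ligand of CD27. Without vehicle repeat 1, H2az2 differed by -0.32 and Cplx3 by -0.32. The rest were Wfdc16 (-0.50), Depp1 (-0.44), Susd3 (-0.41), Zfp334 (-0.39) and Rsph6a (-0.36).

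**Figure D5:**
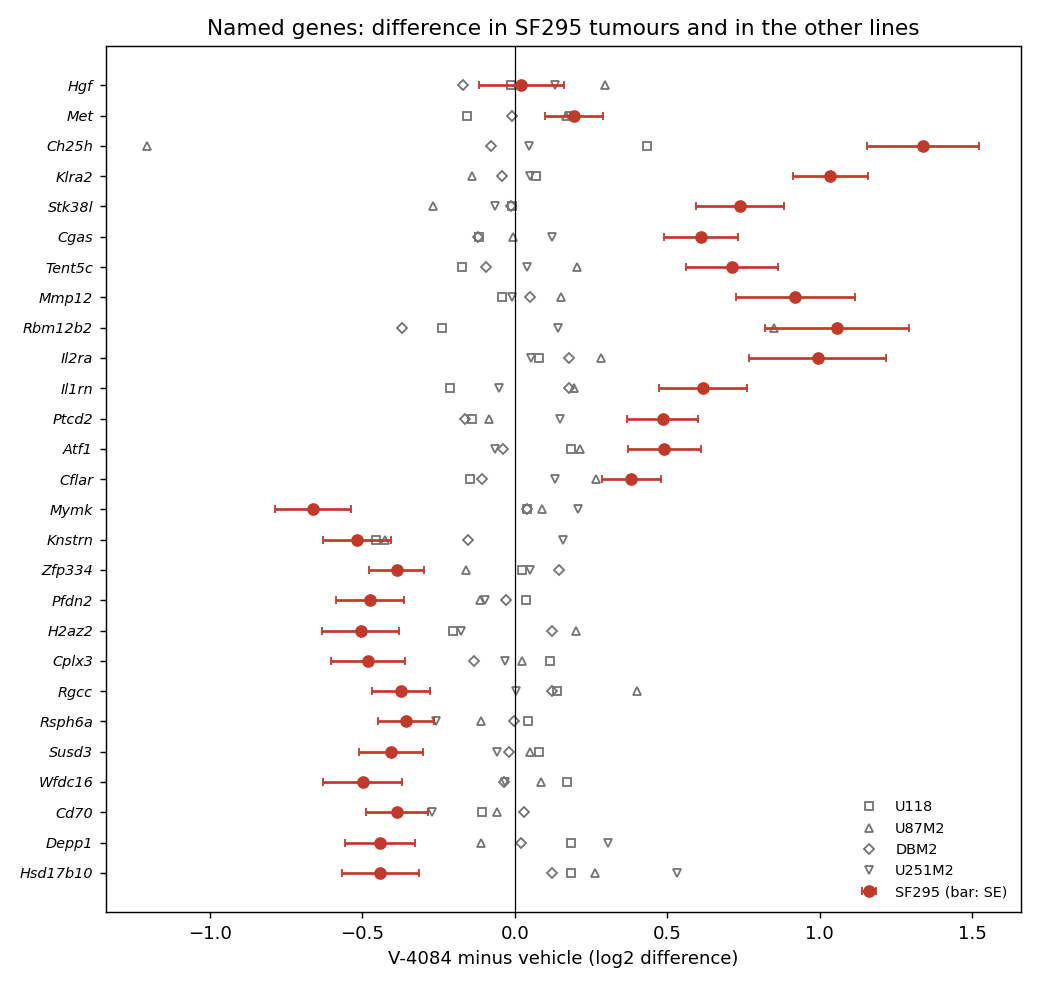
Difference between V-4084 and vehicle (log2, x axis) for the 27 named genes in SF295 tumours, as red points with bars of 1 SE, and in the 4 other lines, as open symbols. Ch25h stands at 1.34 in SF295 and at -1.20 in U87M2, and Hgf at 0.02 in SF295.

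Of the 27 named genes, 22 had a human gene of the same symbol on the human arrays. In cultured SF295 cells 18 of these differed in the same direction, with 0 called there. The same-direction share over all shared symbols is not given here, so nothing particular to the named genes is read from this count. Across all 14333 genes with a shared symbol, the mouse and human SF295 differences had a Pearson r of 0.32, given as a description over genes, which are not independent. Across the 19938 mouse genes, the SF295 difference had an r of 0.18 with that of U87M2, 0.13 with U251M2, -0.16 with U118 and -0.18 with DBM2. The named genes called in another line were 4, and all 4 were called in U87M2, where 741 of all genes (3.72%) were called. Rbm12b2 and Knstrn differed there in the same direction as in SF295, and Ch25h and Rgcc in the opposite direction.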

How the data were processed

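RNA (200 ng per array) was measured on Affymetrix mouse gene arrays. The authors deposited log2 probe-set intensities made with RMA and Partek, per the submitters' processing notes, with versions not given in the sources used here. Of 35556 mouse probe sets, 21789 name 1 gene, 1621 several and 12146 none. Only the first kind was used, keeping for each gene the probe set of highest mean, which gave 19938 genes. Gene names are those of the platform annotation and can be old.

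A mean for each of the 10 groups was estimated from the 28 mouse arrays with limma 3.58.1 (R 4.3.3), leaving 18 residual degrees of freedom. P-values are two-sided, adjusted by Benjamini-Hochberg over all genes and called at 0.05. The human arrays were fitted likewise and separately. The number of arrays limits the precision, and detection above background is not analysed here.

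Hgf, Met, the called genes, then those of smallest p without overlap to 12 in each direction, and the 6 of smallest p for the difference between lines are named, and up to 4 members of a list by size of difference. Predicted genes, receptors of smell and small RNAs are not named. The arrays and gene lists were chosen with earlier results of these data known. The fit was tested on simulated data, with no outcome given here. Alternatives were the 5 arrays alone, an intensity trend, array weights, quantile normalization, a level filter, other probe-set rules, a replicate block and leaving out each array.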

Additional observations from a re-analysis of the deposited data

Results flagged for a closer look

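Ch25h and Klra2 drew attention because their V-4084 differences in SF295 tumours departed from those in the other lines by a test of the difference itself. The Ch25h difference exceeded the mean of the 4 other lines by 1.539 on the log2 scale (limma, adjusted p = 0.000627), and all 3 V-4084 arrays lay above both vehicle arrays. It did not pass without vehicle repeat 1 (adjusted p = 0.0728), an array that stood apart, or with the replicate block (adjusted p = 0.0516). The Klra2 difference exceeded it by 1.0516 (limma, adjusted p = 0.000627), likewise with all 3 V-4084 arrays above both vehicle arrays. Groups of 3 and 2 arrays are too small to test whether a single array is outlying, so arrays were only left out in turn.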

How the results depend on the processing

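The count of 2 called genes was 0 in the 5 SF295 arrays alone, and 1 among genes with a mean at or above the median gene mean, a filter that leaves out Klra2 and keeps Ch25h. It was 2 with an intensity trend, array weights, quantile normalization, the mean of probe sets or every probe set. Leaving out 1 array gave 2 to 9 genes: 5 without V-4084 repeat 3 and 9 without vehicle repeat 2, among them Stk38l (1.13, adjusted p = 0.000183). Without vehicle repeat 1, Klra2 (adjusted p = 0.00724) and Mymk (-0.91, adjusted p = 0.00724) were called and Ch25h was not. For the difference between lines, the count of 2 was 1 under the level filter and 2 to 6 when 1 SF295 array was left out. Without vehicle repeat 1 it was 3 (Klra2, Mymk and Deptor), and Ch25h was lost (adjusted p = 0.0728). On the human SF295 arrays alone 0 genes were called, with 531 at an unadjusted p under 0.05. Klra2 ranged from 0.96 to 1.15 and passed in 10 of 11 alternatives, and Ch25h from 1.08 to 1.60 in 9 of 12.

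The replicate block, which drops V-4084 repeat 3 because it has no vehicle partner, gave 1 gene for V-4084 against vehicle (Klra2, with Ch25h at an adjusted p of 0.0676) and 1 for the difference between lines (Klra2, with Ch25h at 0.0516). Same-numbered arrays deviated together with r over 0.1 in 3 of 13 pairs, with r from -0.35 to 0.30. Deviations were taken from means of very small groups, and those of the SF295 vehicle arrays mirror each other. These values therefore cannot decide whether the numbers pair the samples.

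The difference of Hgf, 0.02, was -0.003 after quantile normalization and ranged from -0.11 to 0.086 when 1 array was left out. Of the 35 list medians, 12 kept their sign in every alternative and 23 changed it in at least 1. With 2 vehicle arrays, small differences were not detectable.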

Other observations

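Other gene groups of the host had 0 members called in SF295 tumours. Of the metabolic lists, mitochondrial fatty acid oxidation had a median of -0.10 with 1 of 14 members above 0, and hypoxia and glycolysis -0.06 over 24 members. Cholesterol synthesis, which 25-hydroxycholesterol is known to hold down, had a median of 0.01 over 20 members. Its members without overlap were 2 higher (10%, beside 5.71% of all genes) and 4 lower (20%, beside 9.92%). Fatty acid synthesis had a median of -0.01, the ATF4 and unfolded protein list 0.05, p53 targets 0.01, extracellular matrix -0.04 and the circadian clock -0.01. Among the cell types, medians were 0.06 for neutrophils, -0.08 for B and plasma cells, 0.09 for mast cells, 0.03 for adipocytes and -0.10 for Schwann cells. They were 0.10 for the sebaceous gland, -0.09 for erythroid cells, 0.00 for fibroblasts and 0.00 for glial genes. Complement and coagulation had a median of 0.09.

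The genes below were chosen after their values were seen. Abca1 and Abcg1, cholesterol exporters that oxysterols induce through liver X receptors, differed by 0.13 ± 0.13 and 0.21 ± 0.15 (SE, limma adjusted p = 0.859 and 0.794), and the arrays overlapped for both. Acod1, which makes itaconate in activated macrophages, lay at 7.31, 6.92 and 6.37 with V-4084 and at 6.39 and 6.33 with vehicle. Tgm2, a transglutaminase, lay at 9.14, 9.10 and 8.16 with V-4084 and at 8.01 and 8.46 with vehicle. In both, V-4084 repeat 3 sat among the vehicle arrays. Without that array Tgm2 differed by 0.89 (adjusted p = 0.00351), against 0.56 (adjusted p = 0.691) with it. Klrk1, the activating receptor NKG2D, lay at 7.51, 6.87 and 6.83 with V-4084 and at 6.45 and 6.62 with vehicle (limma adjusted p = 0.727). Other Klr receptors measured went both ways and none was called. Klrb1c differed by 0.53 and Klrg1 by -0.22, each without overlap, and Klrc1 by -0.12 with overlap.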
